A study of Mus musculus with 12 samples.

Results

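The glucocorticoid receptor, the enzyme that regenerates its ligand and 8 of the receptor's well-known induced target genes were followed in mouse liver after a single bout of postprandial exercise. The 10 genes were Nr3c1, Hsd11b1, Fkbp5, Tsc22d3, Sgk1, Zbtb16, Klf9, Dusp1, Tat and Fam107a, and all 10 were found by symbol among the 17432 genes of the deposited table. Fam107a was picked for its large rise on these samples, so that its values are given below as a description with no test, and counts of changed genes cover the 9 others. The livers came from 12 wild-type (WT) male C57BL/6J mice aged 8 to 10 weeks, 6 labelled Sedentary and 6 labelled Exercise, and RNA-Seq was run on total RNA from each liver. All mice were on chow, had had their meals confined to the daytime for 3 days and had been accustomed to the treadmill. On the day of the experiment they were fed for 3 hours, after which the Exercise mice ran at 14 m/min for 3 hours while the Sedentary mice did not run and food was withheld from both groups. The treadmill carried shock grids, and running and any shocks cannot be told apart here. The study asked how the liver's transcription changes with exercise in the postprandial state.

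Glucocorticoids, which in mice means chiefly corticosterone from the adrenal cortex, enter the cell and bind the glucocorticoid receptor, the product of Nr3c1. The unbound receptor waits in the cytoplasm in a complex with HSP90 and its co-chaperones. Once bound by hormone it moves to the nucleus, where it attaches as a pair to DNA elements made of a pair of inverted hexamers and recruits coactivators or corepressors. In liver it is known for switching on amino acid breakdown and gluconeogenesis in fasting and stress, and several of its quickest targets, among them Fkbp5, Tsc22d3 and Dusp1, restrain the receptor itself or inflammatory signalling. These are properties known from other work and not results of the present samples.

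Of the 9 tested genes, 8 were higher in exercised livers and none was lower by edgeR's quasi-likelihood test at an adjusted p of 0.05. Among all 12344 genes tested, 42.4% were called, 21.1% as higher and 21.3% as lower. At an unadjusted p of 0.05 there was likewise 0 of 9 lower, and DESeq2 and limma-voom also called 0 lower, whereas scaling by library size alone called 1, Nr3c1. The groups did not overlap for 6 of the 9 genes, Fkbp5, Tsc22d3, Sgk1, Zbtb16, Klf9 and Tat, against 22.3% of all genes. The median log2 fold change of the 9 genes was 1.1, beside -0.0028 for all genes tested. The exception among the 9 was the receptor's own transcript. These genes and the gene lists below were chosen with earlier results of these data known. The comparisons with all genes are therefore descriptions and no independent support. Because whole livers were sequenced, more RNA per cell and more cells of a type cannot be told apart in any of these values. Levels are given as counts per 1000000 (CPM) after TMM scaling, a scaling between libraries that trims away the genes with extreme ratios, and log2 fold changes are exercise minus sedentary.

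**Figure D1:**
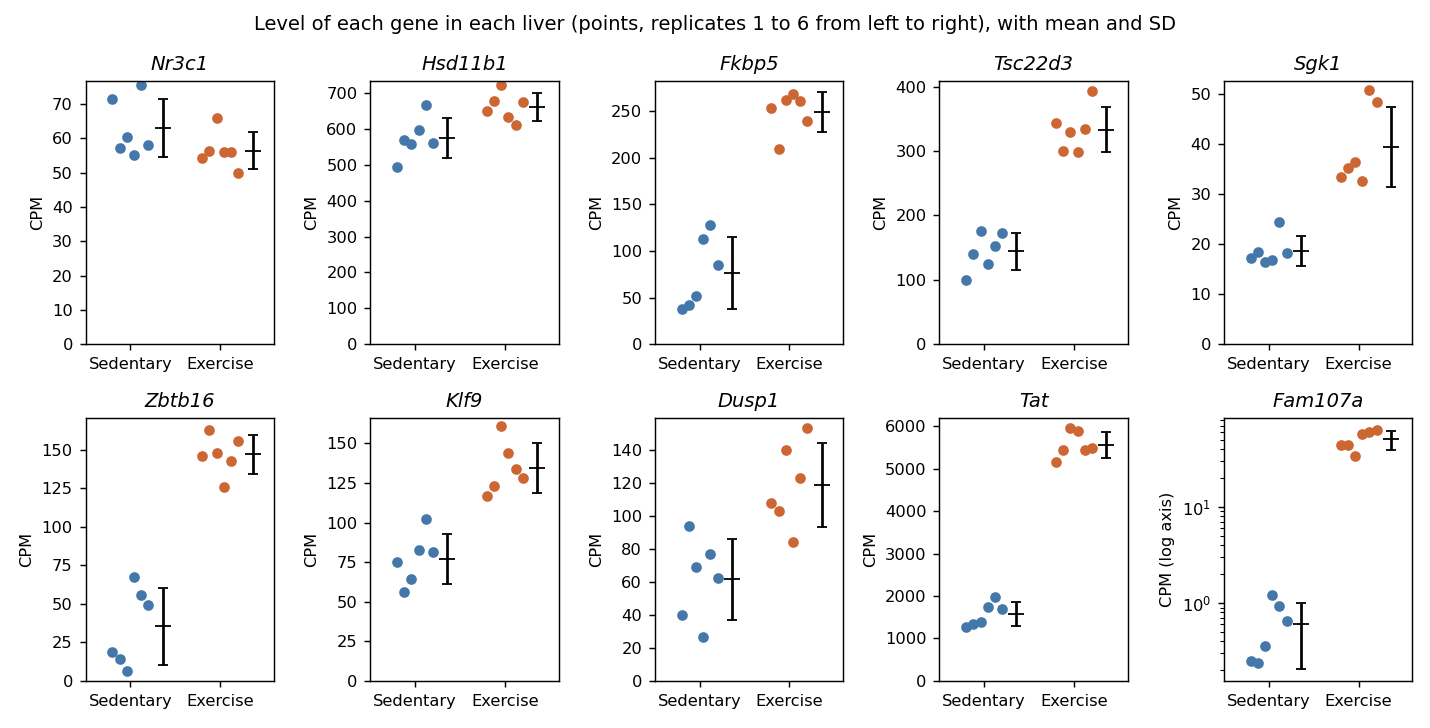
Level of each of the 10 genes in each liver, in TMM-scaled CPM on a linear axis from 0, except for Fam107a, whose axis is logarithmic. Points are single livers with replicates 1 to 6 from left to right, and the bar beside each group is its mean with the SD (n = 6); the groups overlap only in Nr3c1, Hsd11b1 and Dusp1.

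Nr3c1, which encodes the receptor, had levels of 71.5, 57.2, 60.4, 55.2, 75.4 and 58.1 CPM in Sedentary livers 1 to 6 and of 54.3, 56.4, 66.0, 56.0, 56.0 and 49.9 CPM in Exercise livers 1 to 6. The groups overlapped, with the highest values in Sedentary 5 and Sedentary 1 and the lowest in Exercise 6. Its means were 63.0 ± 8.4 and 56.4 ± 5.29 CPM (SD, n = 6), and its log2 fold change was -0.16 ± 0.082 (SE, edgeR adjusted p = 0.135). The exact two-sided permutation test over the 924 relabellings of the livers gave p = 0.145. The call depended on the scaling between libraries, since with library size alone the log2 fold change was -0.25 with an edgeR adjusted p of 0.0102, and with limma on log2(FPKM + 0.1) it was -0.25 with an adjusted p of 0.0187.

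Hsd11b1 encodes the liver's 11β-hydroxysteroid dehydrogenase that turns inactive keto-steroid back into corticosterone inside the cell. Its levels were 495, 568, 558, 598, 667 and 562 CPM in the Sedentary livers and 650, 677, 722, 632, 611 and 674 CPM in the Exercise livers. Exercise 1, 2, 3 and 6 lay at or above 650 CPM, and Sedentary 5 was the only Sedentary liver to reach the Exercise range. The means of 575 ± 56.2 and 661 ± 38.9 CPM differed by a log2 fold change of 0.2 ± 0.068 (edgeR adjusted p = 0.0236; exact permutation p = 0.013, two-sided). This small difference did not hold everywhere. It was 0.11 with an edgeR adjusted p of 0.166 when libraries were scaled by size alone, 0.16 with an adjusted p of 0.0513 without Sedentary replicate 1, and 0.18 with an adjusted p of 0.0503 without Exercise replicate 3. Hsd11b1 shares bases on the opposite strand with the protein-coding gene Lamb3, and the strand setting of the authors' counting is not given in the sources used here.

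Fkbp5, at chr17:28399094-28517527 on the minus strand of GRCm38, encodes a co-chaperone that binds HSP90 in the receptor complex and lowers the receptor's affinity for hormone. The Sedentary livers held 37.9, 41.6, 51.3, 113, 128 and 84.6 CPM and the Exercise livers 253, 210, 262, 269, 261 and 240 CPM. The lowest Exercise liver was 1.64-fold above the highest Sedentary liver, and Sedentary livers 1 to 3 lay apart from and below 4 to 6. The rise was 3.28-fold, a log2 fold change of 1.71 ± 0.31 (edgeR adjusted p = 0.00119), and the exact permutation p was 0.00216, the smallest that 6 against 6 livers can give.

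Tsc22d3, on the X chromosome (chrX:140539528-140600659), encodes GILZ, a leucine zipper protein through which glucocorticoids hold back inflammatory transcription. Sedentary livers had 99.7, 140, 176, 124, 153 and 172 CPM, and Exercise livers had 343, 300, 330, 298, 334 and 394 CPM. Every Exercise liver was above every Sedentary one, and neither group fell into separate sets of livers. The log2 fold change was 1.21 ± 0.12, or 2.31-fold (edgeR adjusted p = 4.1e-06).

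Dusp1 at chr17:26505590-26562128 encodes a phosphatase that switches off MAP kinases and is also an immediate early gene. Its levels varied most widely among the Exercise livers after those of Fam107a, at 108, 103, 140, 83.9, 123 and 153 CPM, while the Sedentary livers had 40.1, 93.7, 69.0, 26.6, 77.1 and 62.2 CPM. Exercise 4 was below Sedentary 2, so the groups overlapped by these livers. The log2 fold change was 0.95 ± 0.28 (edgeR adjusted p = 0.021; exact permutation p = 0.00433, two-sided). The call was lost when only 3 Sedentary livers were kept, with a log2 fold change of 1.1 and an edgeR adjusted p of 0.0524 without Sedentary replicates 1 to 3, and of 0.81 with an adjusted p of 0.0645 without Sedentary replicates 4 to 6. The annotated span given above shares bases on the opposite strand with the protein-coding gene Ergic1. The RefSeq promoter window of Dusp1 searched below, chr17:26508423-26508722, lies near the low end of that span. Whether the shared bases include any counted reads was not tested.

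Tat encodes tyrosine aminotransferase, the first enzyme of tyrosine breakdown and the liver gene in which induction by glucocorticoids has long been studied. Sedentary livers held 1270, 1340, 1390, 1740, 1980 and 1700 CPM and Exercise livers held 5170, 5450, 5970, 5890, 5440 and 5490 CPM, a range that began 2.61-fold above the highest Sedentary liver. The log2 fold change was 1.83 ± 0.098, or 3.55-fold (edgeR adjusted p = 1.03e-09). The gene is at chr8:109990437-109999803.

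Sgk1, the serum- and glucocorticoid-regulated kinase gene at chr10:21882184-21999903, acts downstream of PI3-kinase on ion channels and on FOXO factors. Sedentary livers had 17.2, 18.5, 16.4, 16.9, 24.4 and 18.3 CPM, and Exercise livers had 33.3, 35.2, 36.3, 32.5, 50.8 and 48.4 CPM. Sedentary 5 stood above the rest of its group, and Exercise 5 and 6 above theirs, but no Sedentary liver reached the Exercise range. The rise was 2.12-fold, with a log2 fold change of 1.08 ± 0.13 (edgeR adjusted p = 2.09e-05).

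Fam107a, at chr14:8296274-8318023 on the minus strand, encodes an actin-binding protein known as a stress- and glucocorticoid-responsive gene in brain. The Sedentary livers had 0.25, 0.239, 0.357, 1.21, 0.924 and 0.646 CPM, which rest on only 5.05 to 24.03 estimated counts per library. The Exercise livers had 44.2, 43.9, 33.8, 57.4, 60.8 and 63.7 CPM. The gene was near the limit of detection in Sedentary livers and well expressed in Exercise livers, with means of 0.604 ± 0.398 and 50.7 ± 11.8 CPM, an 83.8-fold ratio of means. This ratio is what the gene was selected on. Its size rests on the low Sedentary counts, for the log2 fold change of 6.39 became 5.76 without Sedentary replicates 1 to 3 and 7.46 without Sedentary replicates 4 to 6.

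Among the genes with a promoter window, letter matching found the full receptor element in Sgk1 and a relaxed form of it in Fam107a. In the others neither was found. RefSeq promoter windows of GRCm38.p6, each from 250 bases before to 50 bases after an annotated start, were held for 8 of the 10 genes, the missing ones being Nr3c1 and Zbtb16. The search covered the hexamer AGAACA on either strand, the full element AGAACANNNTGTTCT, and a relaxed element NGNACANNNTGTNCN that fixes only the G at position 2 and the ACA at positions 4 to 6 of each hexamer. The full and relaxed elements are their own reverse complement, and each full element holds a hexamer on each strand. The windows are shown because they hold these elements, and the capitals mark hexamers and elements.
Sgk1 (chr10:21993640-21993939, plus strand): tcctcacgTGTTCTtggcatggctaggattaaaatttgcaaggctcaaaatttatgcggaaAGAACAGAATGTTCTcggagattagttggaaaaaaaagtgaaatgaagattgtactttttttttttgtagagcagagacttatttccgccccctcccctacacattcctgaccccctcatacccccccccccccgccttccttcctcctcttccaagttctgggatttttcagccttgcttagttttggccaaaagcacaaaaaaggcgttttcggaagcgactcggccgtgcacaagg
Fam107a (chr14:8309730-8310029, minus strand): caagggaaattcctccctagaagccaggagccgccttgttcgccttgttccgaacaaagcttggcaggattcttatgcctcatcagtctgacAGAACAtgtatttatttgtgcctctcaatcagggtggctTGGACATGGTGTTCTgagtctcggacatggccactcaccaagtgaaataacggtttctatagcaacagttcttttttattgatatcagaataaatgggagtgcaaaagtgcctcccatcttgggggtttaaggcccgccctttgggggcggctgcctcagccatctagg

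The Sgk1 element begins 189 bases before the start site and matches the full motif, which only 3 of the 32851 windows in the genome's promoter set held (0.00913%). The Fam107a element begins 119 bases before its start site and matches the relaxed motif, which was present in 155 windows, or 0.472% of them. Counted by gene, 0.537% of 27025 genes had a relaxed element, compared with 2 of the 8 genes here, and Sgk1 with 6 windows and Fam107a with 3, 2 of them nearly the same, had more sequence to match in than a gene with 1 start. The hexamer alone was found in 3 of the 8 genes, Sgk1, Fam107a and Tsc22d3, beside 21.3% of all genes. Among 32 other induced targets with a window, 2 had a relaxed element, Mt1 and Txnip, of which Txnip is named for this match. The Mt1 and Txnip elements, shown for comparison with 10 bases on each side, are at chr8:94178994-94179008 and chr3:96557784-96557798.
Mt1: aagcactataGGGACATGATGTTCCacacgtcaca
Txnip: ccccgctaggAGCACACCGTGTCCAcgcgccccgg

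A match in these windows describes the letters only. No binding was measured, and the windows leave out introns and distant enhancers, so the absence of a match in Fkbp5, Tat, Klf9, Dusp1 and Hsd11b1 bears only on these 300 bases.

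Zbtb16 and Klf9 encode zinc finger transcription factors, the former a BTB-domain repressor also called PLZF and the latter a Krüppel-like factor that binds GC-rich promoters. Zbtb16 (chr9:48654297-48836222) had 18.7, 14, 6.63, 67.2, 55.9 and 49.5 CPM in Sedentary livers and 146, 163, 148, 126, 143 and 156 CPM in Exercise livers. Among the Sedentary livers 1 to 3 were low and 4 to 6 were high, whereas the Exercise livers lay close together. The log2 fold change of 2.06 ± 0.49, or 4.17-fold, was the largest of the tested genes and also the least precise (edgeR adjusted p = 0.00631).

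Klf9 (chr19:23141226-23168134) had 75.3, 56.4, 64.2, 82.4, 102 and 81.6 CPM in Sedentary livers and 117, 123, 161, 144, 134 and 128 CPM in Exercise livers. The groups were separate, with only a 1.15-fold step from the highest Sedentary to the lowest Exercise liver. Its log2 fold change was 0.81 ± 0.12, or 1.75-fold (edgeR adjusted p = 0.000146).

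**Figure D2:**
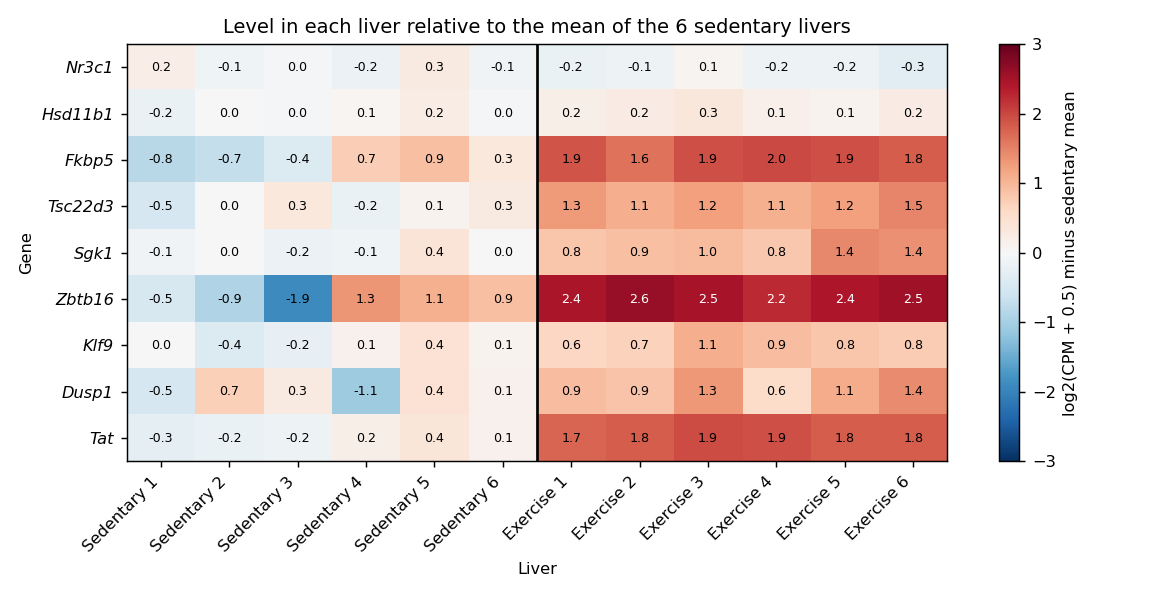
Level of the 9 tested genes in each of the 12 livers as log2(CPM + 0.5) minus the mean of the 6 Sedentary livers, with the value printed in each cell and coloured from blue (below that mean) to red (above it). Fkbp5, Zbtb16, Klf9 and Tat are lower in Sedentary livers 1 to 3 than in 4 to 6, and the rows of Nr3c1 and Hsd11b1 are pale in every liver.

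For some of these genes the Sedentary livers did not form 1 set. In 5 of the 10 genes, Fkbp5, Zbtb16, Klf9, Tat and Fam107a, each of Sedentary livers 1 to 3 was below each of Sedentary livers 4 to 6, an order held by 9.0% of all genes tested. The largest gap between Sedentary livers lay at that step in Fkbp5, Zbtb16, Tat and Fam107a, but in Klf9 it lay between Sedentary 5 and all the others. The labels name no batch, cage or collection time that separates these livers, and the order was noticed in the values, so it was not tested. Tsc22d3, Sgk1, Dusp1, Hsd11b1 and Nr3c1 did not show it. The same order was found in 14 of 39 other induced targets, in 1 of 19 coregulators, the coactivator gene Ppargc1a, and in no gene of the receptor complex, of steroid metabolism or of the repressed targets.

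The size of the exercise difference in these genes therefore depended on which Sedentary livers were used. Without Sedentary replicates 1 to 3 the log2 fold change was 1.2 for Fkbp5, 1.35 for Zbtb16, 0.6 for Klf9 and 1.62 for Tat. Without Sedentary replicates 4 to 6 it was 2.52, 3.48, 1.04 and 2.06 in the same order. All these values kept an edgeR adjusted p under 0.05, the largest being 0.000402 for Klf9 without replicates 1 to 3. The cut followed the order seen in these same genes, which lowers their Sedentary spread, so these p-values give no support. The SE of Zbtb16 was 0.49 with all Sedentary livers, 0.099 without replicates 1 to 3 and 0.29 without replicates 4 to 6. Tsc22d3 moved little, with 1.15 and 1.27, as did Sgk1, with 0.99 and 1.18. The count of higher genes among the 9 was 6 without Sedentary replicates 1 to 3, where Hsd11b1 (0.12, edgeR adjusted p = 0.268) and Dusp1 were no longer called, and 7 without replicates 4 to 6, where Dusp1 was not. Both alternatives were chosen after the values had been seen.

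The spread between livers was smaller after exercise for most of the genes. The coefficient of variation was 50.6% in Sedentary and 8.66% in Exercise livers for Fkbp5, 71.5% and 8.62% for Zbtb16, and 17.7% and 5.47% for Tat. In each of these genes Sedentary livers 1 to 3 lay below 4 to 6, and that split is part of the Sedentary spread. Of the genes without that order, Tsc22d3 had 20.4% and 10.6%, Dusp1 39.9% and 21.5%, Nr3c1 13.3% and 9.37%, and Hsd11b1 9.78% and 5.88%. The coefficient of variation was smaller in Exercise livers for 9 of the 10 genes, the exception being Sgk1 at 15.8% and 20.4%, whereas it was smaller in Exercise livers for 59.0% of all genes tested. The 9 include Fam107a, at 65.9% and 23.2%, which was picked for its rise. Its Sedentary spread rests on 5.05 to 24.03 counts per library, so its smaller spread after exercise carries no weight. The median over all genes was 11.6% in Sedentary and 10.2% in Exercise livers. The difference in spread was not tested. Within the Exercise group the level of Fkbp5 was compared with that of each of the 8 other tested genes. None of the 8 correlations passed after Benjamini-Hochberg adjustment, and none had an unadjusted exact permutation p under 0.05. On FPKM in place of CPM this changed, since Hsd11b1 then passed (r = -0.95, exact permutation adjusted p = 0.0444, against r = -0.3 on CPM) and Zbtb16 had an unadjusted exact permutation p of 0.0417. The adjustment was over these 8 alone, whereas the plan was to adjust over both groups together. Whether Hsd11b1 would pass over that larger set was not tested. The strongest on CPM was with Zbtb16, at Pearson's r = -0.81 (exact permutation p = 0.0694, adjusted 0.555) and Spearman's rho = -0.83 (exact permutation p = 0.0583, adjusted 0.412; n = 6 livers), and r was -0.76 without the 2 livers farthest from the median of Fkbp5. In the Sedentary group the livers fell into separate clusters of 3 for Fkbp5, so no correlation over all 6 is given there, and clusters of 3 are too small for one of their own.

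Levels between genes can be compared per length, on the scale of fragments per kilobase per 1000000 (FPKM) that the authors deposited. In Sedentary livers the order ran from Tat at 694 ± 104 FPKM (SD, n = 6) and Hsd11b1 at 456 ± 33.8 FPKM down to Tsc22d3 at 64.0, Dusp1 at 33.6, Fkbp5 at 20.3, Klf9 at 17.8, Nr3c1 at 10.2, Sgk1 at 8.0, Zbtb16 at 4.77 and Fam107a at 0.205 FPKM. Neighbours from Tsc22d3 through Klf9 overlapped in their ranges, as did Nr3c1, Sgk1 and Zbtb16. In Exercise livers Tat was at 2310 ± 101 FPKM, Hsd11b1 at 491 and Tsc22d3 at 138 FPKM, followed by Fkbp5 at 62.8 and Dusp1 at 60.4 FPKM, which overlapped. Klf9 had 29.3 FPKM, and Zbtb16, Fam107a and Sgk1 lay together at 18.8, 15.9 and 15.8 FPKM. Nr3c1, the seventh in the Sedentary order, came last in the Exercise order at 8.58 ± 0.668 FPKM.

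The effective transcript length that the quantification used, which moves when reads pass from long to short isoforms of a gene, was recovered from the ratio of count to FPKM. It overlapped between groups for all 9 genes with an estimate, and 0 of 9 had groups that were separate with medians at least 0.1 apart on the log2 scale, against 0.375% of the 12001 genes with an estimate. It was 1893 bases in every library for Dusp1, 2329 to 2330 for Tat, 1299 to 1301 for Hsd11b1 and 4431 to 4433 for Klf9. For such genes a steady mix of isoforms cannot be told from a single annotated isoform, since the annotation used is not given. Tsc22d3, which has transcripts of different length from separate start sites, ranged from 2271 to 2398 bases in Sedentary and from 2308 to 2378 bases in Exercise livers. Sgk1, another gene with many start sites, had medians of 2399 and 2413 bases. At an unadjusted exact permutation p of 0.05 there were 2 of 9, Sgk1 at p = 0.0238 and Fkbp5 at p = 0.0498, with shifts of the median of 0.0083 and -0.0002 on the log2 scale. The Fkbp5 lengths, at 3835 or 3836 bases in every library, differ by less than the rounding of its FPKM, which reaches 0.048%. Fam107a had no estimate because its FPKM in some Sedentary livers was below 0.1.

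A list of 18 genes, made up of the receptor's chaperones, co-chaperones and transport factors and of the mineralocorticoid receptor gene Nr3c2, whose product binds the same hormone, was tested in full. Of these, 10 were higher in exercised livers and 2 were lower, which is 66.7% called beside 42.4% of all genes (21.1% higher), and the median log2 fold change was 0.23 beside -0.0028. The largest changes were in the chaperone Hspa8, from 578 ± 129 to 1640 ± 290 CPM (log2 fold change 1.5 ± 0.17, edgeR adjusted p = 1.57e-05), and in the co-chaperone Dnajb1, from 13.4 to 28.8 CPM (1.11 ± 0.098, adjusted p = 2.22e-07). Both HSP90 genes rose, Hsp90ab1 by 0.6 and Hsp90aa1 by 0.45 on the log2 scale, as did the p23 gene Ptges3 by 0.32, the adaptor gene Stip1 by 0.43 and the HSP90 activator gene Ahsa1 by 0.4. Dnaja1, St13 and Ppp5c rose by 0.49, 0.43 and 0.13. Hspa4, Ppid, Bag1, Ipo13 and Cdc37 did not pass, with log2 fold changes of -0.084, -0.045, 0.07, -0.14 and 0.028. Many of these are also heat shock genes.

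Fkbp4, whose product competes with that of Fkbp5 for HSP90 and helps the receptor into the nucleus, was at 236 and 249 CPM, a log2 difference of 0.079 ± 0.068 that did not pass (edgeR adjusted p = 0.376). Per length, Fkbp4 was at 114 and 112 FPKM and Fkbp5 at 20.3 and 62.8 FPKM in Sedentary and Exercise livers. Nr3c2 was lower, at 9.6, 5.25, 7.08, 5.6, 6.63 and 7.2 CPM in Sedentary and 4.16, 4.34, 3.36, 4.13, 3.46 and 3.2 CPM in Exercise livers, with no overlap (log2 fold change -0.87 ± 0.14, edgeR adjusted p = 8.5e-05). Stub1, a ubiquitin ligase for chaperone clients, was lower by a log2 fold change of -0.21 (edgeR adjusted p = 0.0279). With libraries scaled by size alone the complex had 8 higher and 4 lower genes.

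Among 12 genes that make, carry or clear glucocorticoids in liver, 11 were tested, 3 were higher and 2 lower, and the median log2 fold change was -0.099. The 45.5% called lay near the 42.4% of all genes. H6pd, which supplies NADPH to the Hsd11b1 enzyme inside the endoplasmic reticulum, rose from 271 ± 36.7 to 381 ± 28.8 CPM with no overlap (log2 fold change 0.49 ± 0.081, edgeR adjusted p = 0.000113). Slc37a4, the glucose-6-phosphate transporter that feeds H6pd, was higher by 0.27 (adjusted p = 0.00184), and the steroid hydroxylase gene Cyp3a13 by 0.37 (adjusted p = 0.0206). Serpina6, which encodes corticosteroid-binding globulin, was lower at 231 to 338 CPM in Exercise against 284 to 353 CPM in Sedentary livers (log2 fold change -0.24 ± 0.081, adjusted p = 0.0223). Akr1c6 was lower by a log2 fold change of -0.31 (adjusted p = 0.000837). The A-ring reductase genes Akr1d1, Srd5a1 and Srd5a2 did not pass, with log2 fold changes of -0.16, -0.099 and -0.35, nor did Cyp3a11, Akr1c14 and Abcb1a, with 0.14, -0.15 and -0.064. Hsd11b2, which inactivates corticosterone in kidney, was at 0 or 1 count in every library. With libraries scaled by size alone, 2 of the 11 were higher and 4 lower.

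The 19 coregulators gave 6 higher and 4 lower genes with a median log2 fold change of 0.067, or 52.6% called beside 42.4% of all genes. Ppargc1a, which encodes the coactivator PGC-1α of gluconeogenic genes, had 6.85, 7.21, 5.76, 12.7, 10.3 and 10.5 CPM in Sedentary and 28.3, 31.8, 42.1, 32.5, 28.6 and 32.4 CPM in Exercise livers (log2 fold change 1.88 ± 0.18, edgeR adjusted p = 5.09e-06). The acetyltransferase genes Ep300 and Crebbp rose by 0.47 and 0.46 on the log2 scale, and Ncoa3 rose by 0.24. Ncoa1 and Ncoa2, the steroid receptor coactivator genes most tied to the receptor in liver, were at log2 differences of 0.096 and 0.14 that did not pass. The corepressor gene Nrip1 was lower by a log2 fold change of -0.38, while Ncor1, at 0.023, did not pass. The other lower genes were Carm1, Hdac3 and Hic1.

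**Figure D3:**
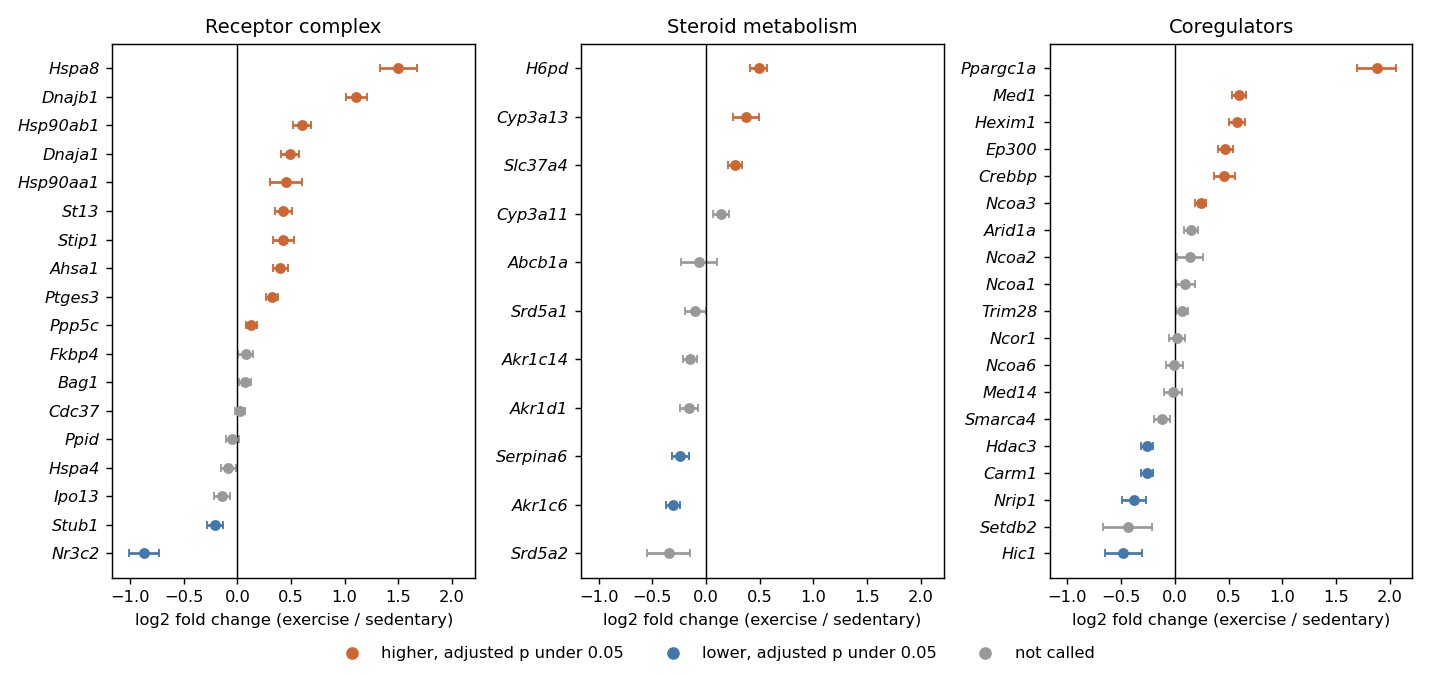
Log2 fold change (exercise / sedentary) of every tested gene of the receptor complex (18), of steroid metabolism (11) and of the coregulators (19), with bars of 1 SE derived from edgeR's test and n = 6 livers per group. Orange marks genes higher and blue genes lower at an adjusted p under 0.05, and grey genes not called; Hspa8, Dnajb1 and Ppargc1a lie above 1 and Nr3c2 lowest at -0.87.

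Of 40 further genes known to be induced by glucocorticoids in liver or other cells, 39 were tested, 29 were higher and 2 lower, which is 79.5% called beside 42.4% of all genes (21.1% higher), and the median log2 fold change was 1.0. Because this list was chosen with earlier results of these data known, its share above that of all genes is a description only. The metallothionein genes Mt1 and Mt2, whose products bind zinc and copper, were the most changed. Mt1 had 22.9, 14.4, 25.9, 54.8, 51.7 and 37.7 CPM in Sedentary and 266, 394, 876, 448, 592 and 496 CPM in Exercise livers (log2 fold change 3.89 ± 0.41, edgeR adjusted p = 3.23e-05), and Mt2 had a log2 fold change of 4.46 ± 0.52. Ddit4, an inhibitor of mTORC1, went from 5.65 to 11.7 CPM in Sedentary livers to 60.2 to 145 CPM in Exercise livers (3.74 ± 0.26, adjusted p = 1.47e-06). These genes answer to other signals besides glucocorticoids, and which signal acted was not tested.

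The 8 tested genes of the list that did not pass had log2 fold changes from -0.1 to 0.41. Pck1, the gluconeogenic carboxykinase gene, rose by 1.93 ± 0.31 on the log2 scale, Tdo2, the tryptophan dioxygenase gene, by 1.09 ± 0.15, and Sds, the serine dehydratase gene, by 0.95 ± 0.25. Lpin1, a phosphatidate phosphatase gene, had 111 to 360 CPM in Sedentary and 823 to 1170 CPM in Exercise livers (2.21 ± 0.3, edgeR adjusted p = 0.000176). Angptl4, which encodes an inhibitor of lipoprotein lipase, had 48.8, 57.0, 64.7, 99.1, 75.1 and 93.6 CPM in Sedentary and 187, 219, 280, 218, 221 and 237 CPM in Exercise livers (1.64 ± 0.17, adjusted p = 1.53e-05). The secreted binding protein gene Igfbp1 rose by 2.76 ± 0.29 on the log2 scale, and the lysolipid transporter gene Mfsd2a by 1.36 ± 0.24.

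The cell cycle inhibitor gene Cdkn1a rose by 2.05 ± 0.33, Cebpd by 1.41 ± 0.15 and Cebpb by 1.34 ± 0.1 on the log2 scale, and the clock gene Per1 by 0.87 ± 0.093. Usp2, a deubiquitinase gene, rose by 1.25 ± 0.083. Bcl6 rose by 0.65 ± 0.17 and Errfi1, a brake on the EGF receptor, by 0.56 ± 0.073. Hif3a rose by 1.57 ± 0.27 but on a low level of 0.204 to 1.76 CPM. The 2 genes that were lower were Tgm2, a transglutaminase gene, at -0.46, and Fgf21, a hormone gene, at -1.88 on no more than 30 counts per library (edgeR adjusted p = 0.000118).

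**Figure D4:**
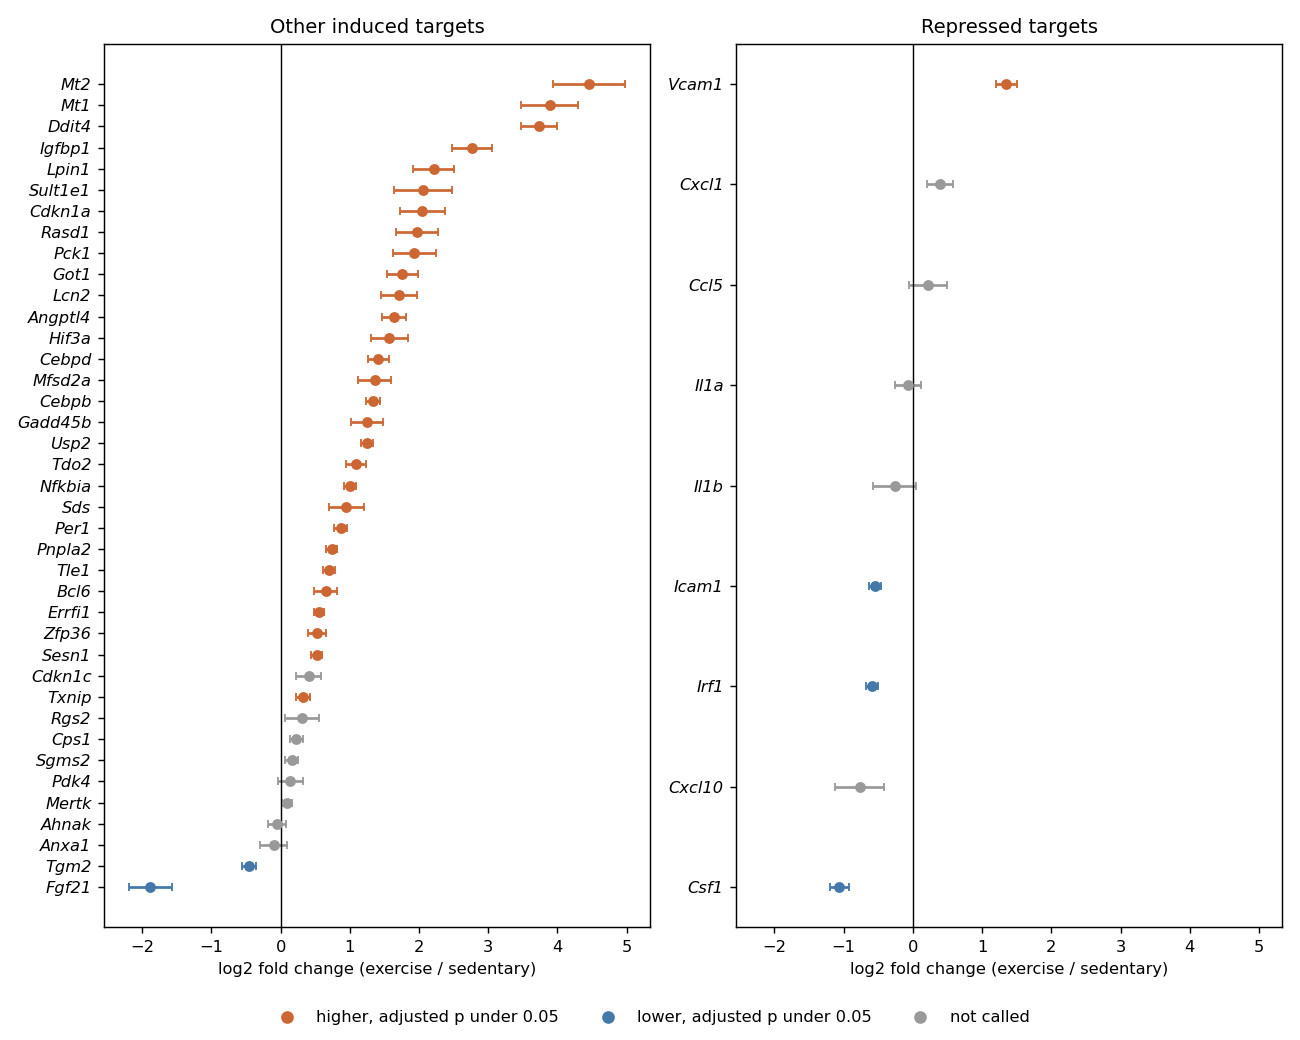
Log2 fold change (exercise / sedentary) of the 39 tested genes of the list of other induced targets and of the 9 tested genes of the list of repressed targets, with bars of 1 SE derived from edgeR's test and n = 6 livers per group. Orange marks genes higher and blue genes lower at an adjusted p under 0.05, and grey genes not called; 29 of 39 induced targets lie to the right as higher, and 3 of 9 repressed targets to the left as lower.

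Genes that glucocorticoids are known to hold down in inflamed cells were often too low in these livers to test. Of 20 listed, 19 were in the table and 9 were tested, of which 3 were lower and 1 higher. The 44.4% called lay near the 42.4% of all genes, of which 21.3% were lower. Icam1, the leukocyte adhesion gene, was at 10.7 to 13.0 CPM in Sedentary and 6.56 to 9.04 CPM in Exercise livers (log2 fold change -0.55 ± 0.09, edgeR adjusted p = 0.0001), Irf1 had a log2 fold change of -0.59 ± 0.088, and Csf1, the macrophage growth factor gene, one of -1.06 ± 0.14. Vcam1, another adhesion gene, was higher instead, at 4.02 to 6.46 and 9.41 to 18 CPM (1.35 ± 0.15, adjusted p = 5.71e-06). Cxcl1 had a log2 difference of 0.39 that did not pass, and Ccl2 had between 1 and 5 counts per library.

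Each library held 18745379 to 19324461 estimated counts, and counting error weighed most on genes with few counts per library, Fam107a in Sedentary livers among them. The livers carried their tissue's markers, with a summed level of 8 hepatocyte genes of 126000 to 169000 CPM in Sedentary and 158000 to 177000 CPM in Exercise livers, 3 of the 8 being higher, Tat among them. The 8 Kupffer cell markers summed to 68.8 to 118 and 80.1 to 125 CPM, and the 6 blood cell markers to 416 to 684 and 414 to 527 CPM. Of 8 stellate cell markers 2 were lower, Lrat and Des. Of 8 endothelial markers 3 were higher and 1 lower, and their part in the changes of Vcam1 and Icam1 was not tested. Among all genes tested 42.4% were called, 21.1% as higher and 21.3% as lower. The share called in the hepatocyte, stellate and endothelial lists lay near or below that, and is not read as a change in cell types. All 5 tested cardiac muscle markers were lower, with sums of 11 to 22.9 CPM in Sedentary and 0.29 to 11.5 CPM in Exercise livers, and their part in the present results was not tested.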

How the data were processed

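RNA-Seq was made from the livers of 12 mice, 6 Sedentary and 6 Exercise, grouped by the sample labels. Per the submitters' processing notes, reads were handled with Bowtie2 2.3.4.3 and RSEM 1.3.1 on mm10, which is GRCm38. Annotation and strand setting are not given in the sources used here. The authors deposited, for 17432 genes, an estimated count per library, not scaled, of which 31.3% were not whole numbers, and an FPKM value scaled for transcript length and depth. No pair of the 66 library pairs was identical, and for livers of one group the chi-square per gene was 7.94 to 45.1, well over counting noise. P-values set the difference between groups against the spread between livers within this experiment.

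Rounded estimated counts went into edgeR 4.0.16 (R 4.3.3) with TMM scaling, filterByExpr at a minimum count of 10, and the quasi-likelihood test in its robust form (group as the only term, Benjamini-Hochberg adjustment over 12344 genes, threshold 0.05), after the scripts were tested on simulated data. The biological coefficient of variation was 11.3%. Since edgeR gives no SE, the SE of a log2 fold change is its size divided by the square root of the quasi-likelihood F statistic. Exact permutation tests in Python 3.11.15 with scipy 1.17.1 used mean log2(CPM + 0.5) over 924 relabellings. Effective lengths needed an FPKM of at least 0.1 in every library. Alternatives used DESeq2 1.42.0 and limma 3.58.1. Correlations were planned in both groups and are given in Exercise livers only, because the Sedentary livers fell into clusters for Fkbp5. Their p-values were adjusted over the 8 given, and not over both groups as planned. Promoter windows came from RefSeq on GRCm38.p6, and gene positions from GENCODE on GRCm38.

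The 10 genes and all gene lists were chosen with earlier results of these data known, and 1 gene of the coregulator list is not reported here. By a fixed rule the text could name the 10 genes, any tested gene of the receptor complex and of steroid metabolism, and set members of the other lists, and beyond these only genes behind a count of 5 or fewer.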

Additional observations from a re-analysis of the deposited data

Results flagged for a closer look

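One value stood apart from its group. Sgk1 in Sedentary 5 was 24.4 CPM, beside 18.5 CPM in the next highest Sedentary liver, a gap of 0.737 of the group's range, above Dixon's limit of 0.625 for 6 samples. Among the 20 groups checked (10 genes in 2 groups), chance alone flags about 1. Without Sedentary replicate 5 the log2 fold change of Sgk1 was 1.18 in place of 1.08.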

How the results depend on the processing

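Between TMM scaling and scaling by library size alone the median of all genes moved from -0.0028 to -0.098 (log2), and the share of calls that were higher from 49.8% to 32.1% (31.4% with limma on log2(FPKM + 0.1), 31.6% with log2(FPKM + 1)). Under library size alone or FPKM, Nr3c1 passed as lower (-0.25, -0.25 with a pseudocount of 0.1 and -0.22 with 1) and Hsd11b1 lost its call (0.11 in all 3). At an adjusted p of 0.01 steroid metabolism had 3 called genes in place of 5, and the 9 genes 6 in place of 8, without Hsd11b1 and Dusp1. With FPKM in place of CPM, 1 of 8 correlations passed, that of Hsd11b1 with Fkbp5 (r = -0.95, exact permutation adjusted p = 0.0444, against r = -0.3 with CPM), and the cause was not tested. This pass rests on adjustment over the 8 in Exercise livers alone. With the full motif 1 gene matched in place of 2, since it allows fewer letters. Leaving out each liver in turn gave 7 to 8 called genes among the 9, 10 to 12 in the receptor complex, 4 to 6 in steroid metabolism, 9 to 11 coregulators, 31 to 34 other induced targets and 4 to 5 repressed targets, with 0 to 0 for effective length; Hsd11b1 alone among the 9 lost its call (0.16 to 0.25 over these fits). Fam107a had a log2 fold change of 5.78 and 3.79 on log2(FPKM + 0.1) and log2(FPKM + 1). The replicate block gave 8 called genes among the 9 and 4956 in all against 5229. Livers with the same number did not pair (correlations of their deviations from -0.099 to 0.16, and 3 of 12 closest to their own number). Alternatives that kept 3 Sedentary livers, added after seeing the data, called 11 and 9 genes of the receptor complex, 4 and 6 of steroid metabolism, 7 and 11 coregulators, 30 and 32 other induced targets, and 4 and 6 repressed targets, without Sedentary replicates 1 to 3 and 4 to 6. Depth limits Fam107a in Sedentary livers and most repressed targets.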

Other observations

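Of the 6 genes of the adrenal list only 2 were in the table, Star and Cyp21a1. Both were higher in exercised livers by edgeR, as were 21.1% of all genes tested. Their summed level was 6.58 to 12.1 CPM in Sedentary and 10.9 to 20.2 CPM in Exercise livers. Cyp21a1, the steroid hydroxylase gene, had 8.05, 7.54, 9.23, 8.02, 4.73 and 9.64 CPM in Sedentary and 11.5, 13.0, 16.6, 7.88, 10.3 and 12.8 CPM in Exercise livers. Star, the gene of the cholesterol carrier of steroid-making mitochondria, had 1.85 to 2.62 CPM in Sedentary and 2.29 to 4.07 CPM in Exercise livers. The groups overlapped in each.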
